A study of Mus musculus with 12 samples.

Results

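TFIID is the general transcription factor that binds core promoters and starts the assembly of RNA polymerase II there, and its subunit Taf11 was lower in B6.CAST-17 congenic mice than in wild type B6 mice on every array of both tissues. The 10 genes described are Taf11, Tbp, Taf1, Taf4a, Taf5, Taf7, Taf9, Taf10, Taf12 and Taf13. Taf11 was chosen by its strain difference in muscle and hypothalamus in earlier results of these arrays, and the others as subunits of the same complex. They were found as every probe whose gene symbol in the platform annotation was one of these names or a synonym. This gave 8 genes with 1 probe each, of 33012 probes and 13840 named genes in all. No named probe was matched to Taf1 or Taf4a (now Taf4), which were therefore not analysed here.

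The arrays came from male mice in 4 groups of 3 arrays each: skeletal muscle of B6.CAST-17 congenics, skeletal muscle of wild type B6, hypothalamus of B6.CAST-17 congenics, which those titles alone call short congenics, and hypothalamus of wild type B6. The congenics are homozygous for a chromosome 17 segment of the wild-derived strain CAST on the B6 background. Each strain had 3 mice, which the series text counts as its biological replicates, so both tissues may come from the same animals, which the labels do not settle. Groups follow the sample titles, because the description field gives the congenic strain for all 12 samples, those titled wild type included. Neither the age of the mice nor the ends of the segment were known from the labels.

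TFIID consists of the TATA-binding protein, encoded by Tbp, and TBP-associated factors, encoded by the Taf genes. Many of these factors carry a histone fold and join the complex in pairs: Taf11 pairs with Taf13, Taf9 with Taf6, Taf12 with Taf4, and Taf10 with Taf8 or Taf3. Taf9, Taf10 and Taf12 also belong to SAGA, a coactivator complex that acetylates histones, whereas Taf11 and Taf13 belong to TFIID. Cells of nearly all tissues make these proteins. Taf11 and Tbp lie on chromosome 17, the chromosome of the transferred segment, and the other members elsewhere.

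Promoter windows are shown for Taf11, for its partner gene Taf13 and for Tbp, the other member on chromosome 17, because the comparisons of Taf11 with these genes are given in most detail. They are RefSeq windows of the build GRCm38.p6, which is the B6 sequence, from 250 bases before an annotated start to 50 after it, on the strand of the gene. CAST sequence was not used here. Of the 10 genes 9 matched the table and Taf7 did not. Capitals mark motifs on either strand. GGAAGT is the core of sites bound by ETS factors. TGACG is the core of the cAMP response element. The TATA box reads TATAAA. These motifs were chosen after the windows were seen.
Taf11, chr17:27907695-27907994, minus strand: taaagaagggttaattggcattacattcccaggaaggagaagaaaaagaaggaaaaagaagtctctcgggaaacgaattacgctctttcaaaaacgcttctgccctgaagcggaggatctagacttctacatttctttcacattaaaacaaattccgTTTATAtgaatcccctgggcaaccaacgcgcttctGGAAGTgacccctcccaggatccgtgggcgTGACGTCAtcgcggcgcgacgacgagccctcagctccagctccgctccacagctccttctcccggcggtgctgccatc
Taf11, chr17:27909193-27909492, minus strand: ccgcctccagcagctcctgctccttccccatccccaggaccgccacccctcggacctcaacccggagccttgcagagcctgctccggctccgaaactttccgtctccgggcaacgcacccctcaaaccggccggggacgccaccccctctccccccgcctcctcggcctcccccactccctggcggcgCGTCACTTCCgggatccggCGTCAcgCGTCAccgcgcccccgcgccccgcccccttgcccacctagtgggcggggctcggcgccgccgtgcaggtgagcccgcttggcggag
Taf13, chr3:108571449-108571748, plus strand: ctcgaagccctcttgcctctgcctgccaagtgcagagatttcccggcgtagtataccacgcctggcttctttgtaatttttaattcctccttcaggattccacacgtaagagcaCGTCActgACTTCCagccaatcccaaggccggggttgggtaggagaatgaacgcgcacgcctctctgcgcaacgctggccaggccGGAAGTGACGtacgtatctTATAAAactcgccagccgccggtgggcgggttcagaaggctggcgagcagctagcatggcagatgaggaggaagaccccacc
Tbp, chr17:15499638-15499937, plus strand: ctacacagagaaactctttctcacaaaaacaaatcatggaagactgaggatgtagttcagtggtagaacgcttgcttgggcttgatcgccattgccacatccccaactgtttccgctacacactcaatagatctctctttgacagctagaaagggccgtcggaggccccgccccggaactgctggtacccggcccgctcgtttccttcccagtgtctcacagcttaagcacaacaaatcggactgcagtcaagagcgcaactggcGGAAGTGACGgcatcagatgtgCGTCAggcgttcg

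Each of these windows held GGAAGT and TGACG. In Taf13 and Tbp the motifs overlapped by 1 base and formed the run GGAAGTGACG, 51 bases before the start of Taf13 and 15 bases after that of Tbp. The first Taf11 window had GGAAGT 58 bases before its start and the full palindrome TGACGTCA 28 bases before it. The other Taf11 window had the ETS letters on the opposite strand, also 58 bases before its start, and TGACG on that strand 3 times. There the motifs overlapped by 1 base as well, so that strand held the run GGAAGTGACG too, marked as CGTCACTTCC. Over the 11 windows of the 9 genes GGAAGT was found in 7 and TGACG in 8, against 23.8% and 20.8% of the 32851 windows of all genes. TGACGTCA was found in 1 of the 11 windows and in 1.79% of all. TATAAA was found in 3 of the 11 windows, those of Taf11, Taf13 and Taf5, and in 13.6% of all. It lay 32 bases before the start in Taf13 and 246 bases before it in Taf5. In Taf11 it lay 93 bases before the start of the first window, on the opposite strand. Other motifs were searched and not marked. The GC box was found in 9 of the 11 windows (35.7% of all) and the CCAAT box in 4 (37.4%). A longer ETS motif was found in 4 of the 11 (3.89%) and the NRF1 motif in 0 (0.971%). The marked motifs were chosen after these windows were seen, so these shares cannot show an excess over all windows. The matches describe letters in the B6 sequence, and their part in any level was not tested.

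Values are log2 intensities as the authors deposited them, so a difference of 1 is a doubling if base 2, which no label names, is right. Each tissue was normalized apart, and no detection calls were available. Tissue markers bore out the titles. The 9 skeletal muscle genes had an array median of 19.99 to 20.04 on congenic and 20.01 to 20.15 on wild type muscle arrays, and 8.81 to 10.62 on congenic and 8.66 to 9.46 on wild type hypothalamus arrays. The median of 8 measured neuron genes of 9 was 14.97 to 16.16 in congenic and 12.92 to 16.10 in wild type hypothalamus. The value of 12.92 is that of wild type array 1, without which the range was 16.04 to 16.10. In muscle these genes had 8.40 to 8.76 in congenics and 8.14 to 9.08 in wild type mice. Wild type hypothalamus array 1 stood apart: its Spearman correlations with the 5 other hypothalamus arrays were 0.420 to 0.461, while those 5 correlated at 0.775 to 0.853 with each other. On this array 4 of the 8 members (Taf11, Taf5, Taf9 and Taf12) lay above all 5 other hypothalamus arrays and 3 (Tbp, Taf7 and Taf13) lay below them. Strain differences of the members in hypothalamus are therefore given with and without it.

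Taf11, the histone-fold subunit, had 11.77, 12.30 and 12.86 in congenic muscle, against 14.92, 14.96 and 15.16 in wild type muscle. In hypothalamus it had 10.71, 11.23 and 11.49 in congenics, against 15.12, 14.10 and 13.97 in wild type mice, where the first of these values is that of array 1. The strains did not overlap in either tissue, and the gap between the highest congenic and the lowest wild type array was wider than the spread within any group. The congenic arrays varied more than the wild type arrays in muscle, with 12.31 ± 0.55 (SD, n = 3) in congenics and 15.01 ± 0.13 (n = 3) in wild type mice.

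The difference, congenic minus wild type, was -2.70 (SE 0.27) in muscle, which is a 6.51-fold lower intensity. In hypothalamus it was -3.26 (SE 0.63) over all 6 arrays and -2.90 (SE 0.32) without wild type array 1, or 9.55-fold and 7.44-fold lower. These sizes are descriptions with no test, because Taf11 was chosen for them. Ordered from the most negative difference, Taf11 had rank 6 of 33012 probes in muscle and rank 7 in hypothalamus, with and without wild type array 1. Among 656 named genes of chromosome 17 it had rank 1 in muscle and rank 2 in hypothalamus in both cases. By absolute size Taf11 had rank 10 of all probes in muscle, and in hypothalamus rank 39, or 15 without wild type array 1. The muscle difference minus the hypothalamus difference was 0.55 (SE 0.65) over 12 arrays and 0.19 (SE 0.45) without wild type hypothalamus array 1, again as a description.

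**Figure D1:**
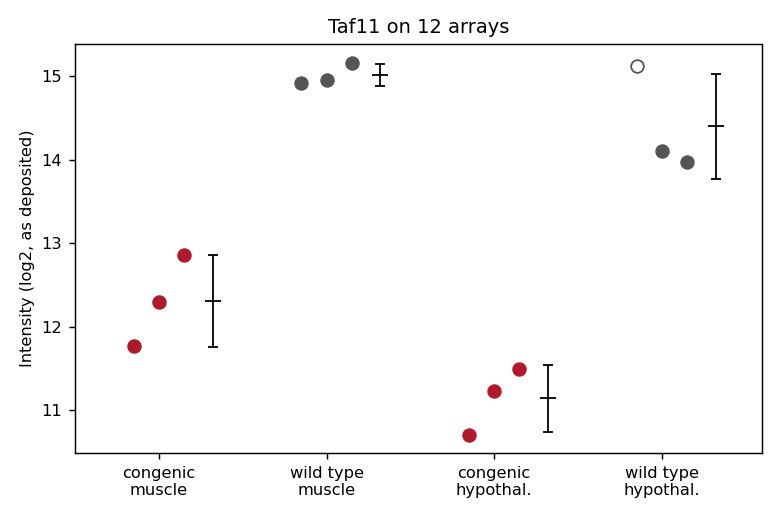
Taf11 intensity (log2, as deposited, vertical axis) on each of the 12 arrays by group, with the mean and SD of 3 arrays beside the points and wild type hypothalamus array 1 as an open circle. Congenic arrays lie between 10.71 and 12.86 and wild type arrays between 13.97 and 15.16, with no overlap in either tissue.

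The 4 group means of Taf11 ran from 11.14 ± 0.40 in congenic hypothalamus through 12.31 ± 0.55 in congenic muscle and 14.40 ± 0.63 in wild type hypothalamus to 15.01 ± 0.13 in wild type muscle (SD, n = 3 each). The ranges of the wild type tissues overlapped through hypothalamus array 1 alone, without which wild type hypothalamus was 14.04 ± 0.09 (n = 2), and those of the congenic tissues did not overlap. The tissues were normalized apart, so the order across tissues was not tested. With all 12 arrays quantile-normalized together, the wild type means were 14.69 in hypothalamus and 14.71 in muscle, a gap of 0.02 that was 0.41 without hypothalamus array 1 (14.30 in hypothalamus). On that scale the congenic means were 11.18 in hypothalamus and 12.22 in muscle, so that the strains stayed farther apart than the tissues.

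In bulk tissue, fewer cells of a type and less RNA per cell cannot be told apart. Array probe sequences were not used here, so a weaker signal from a CAST allele and a lower transcript level cannot be told apart either. In muscle the array median of the 4 measured macrophage markers of 6 differed by strain as well. It was 14.60 to 14.65 in congenics and 13.45 to 14.16 in wild type mice. The median of 6 measured anterior pituitary markers also separated the strains in muscle, with 8.58 to 9.65 in congenics and 7.76 to 8.51 in wild type mice. These values lie near the median of all probes on the muscle arrays, 9.12. Without detection calls they cannot be told from background. The part of either list in the Taf11 difference was not tested. In hypothalamus the 6 measured anterior pituitary markers of 7 had an array median of 9.93 to 15.25 in congenics and 9.49 to 9.82 in wild type mice. The 5 measured oligodendrocyte markers of 6 overlapped, with 9.74 to 12.75 in congenics and 7.90 to 11.01 in wild type mice (10.46 to 11.01 without array 1). The part of these markers was not tested either.

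The 7 other measured subunits showed no strain difference that passed the test. In muscle 5 had a positive and 2 a negative difference, from -0.65 to 0.46 with a median of 0.18, where the median of all probes was 0.01. By limma 0 of 7 had an adjusted p under 0.05, against 0.0182% of all probes, and 0 of 7 had an unadjusted p under 0.05, against 5.01%. In none of the 7 did the congenic arrays all lie above (6.65% of all probes) or all below (5.27%) the wild type arrays. In hypothalamus 3 were positive and 4 negative over all 6 arrays. Again 0 of 7 passed limma adjusted over all probes (0% of all probes), 0 of 7 had an unadjusted p under 0.05 (1.99%), and 0 of 7 had arrays all higher (3.47%) or all lower (5.69%). Without wild type array 1 there were 1 positive and 6 negative differences, with a median of -0.27 against -0.01 for all probes. The counts were then 0 of 7 for the adjusted p (0%), 0 of 7 for the unadjusted p (5.33%), 0 of 7 for all arrays higher (9.32%) and 1 of 7 for all lower (13.3%).

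Taf13, the histone-fold partner of Taf11, had 14.03, 14.27 and 12.06 in congenic muscle, against 13.90, 14.15 and 14.27 in wild type muscle. Congenic array 3 alone was low, and the other congenic arrays lay inside or at the edge of the wild type range. The difference was -0.65 (95% interval -1.73 to 0.43, limma adjusted p = 0.838), and without congenic array 3 it was 0.04. In hypothalamus Taf13 had 13.01, 12.81 and 13.05 in congenics, against 11.19, 13.06 and 13.39 in wild type mice. The low wild type value is that of array 1, and the sign of the difference turned on it. The difference was 0.41 over all 6 arrays (95% interval -1.26 to 2.08, limma adjusted p = 0.940) and -0.27 without wild type array 1 (-0.89 to 0.35, limma adjusted p = 0.929). The intervals allow a change of up to 3.32-fold in muscle, and in hypothalamus of up to 4.22-fold over all 6 arrays and 1.85-fold without that array.

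Within each array, Taf11 minus Taf13 was -2.27, -1.97 and 0.79 in congenic muscle, against 1.02, 0.81 and 0.89 in wild type muscle. Congenic array 3, where Taf13 was low, thus came close to the lowest wild type value, and the strains still did not overlap. In hypothalamus this value was -2.30, -1.58 and -1.55 in congenics, against 3.92, 1.04 and 0.59 in wild type mice, with no overlap. Set against the mean of the 7 other subunits, Taf11 was -0.43 ± 0.67 in congenic and 2.33 ± 0.09 in wild type muscle (SD, n = 3 each). In hypothalamus the values were -0.63 ± 0.37 in congenics and 2.55 ± 0.82 in wild type mice (SD, n = 3 each), or 2.09 ± 0.21 (n = 2) without array 1. Probes differ in brightness, so the level of such a difference has no meaning of its own, and its shift between the strains is again a description.

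Tbp, which encodes the TATA-binding protein and lies on chromosome 17 like Taf11, had 9.89, 10.83 and 10.11 in congenic muscle, against 9.54, 10.28 and 10.27 in wild type muscle. In hypothalamus it had 11.00, 10.26 and 11.61 in congenics, against 8.91, 11.29 and 11.27 in wild type mice. The strains overlapped in both tissues. The differences were 0.25 in muscle (95% interval -0.65 to 1.15, limma adjusted p = 0.911) and 0.47 in hypothalamus (-1.43 to 2.37, limma adjusted p = 0.939). Without wild type array 1 the hypothalamus difference was -0.32 (-1.31 to 0.67, limma adjusted p = 0.942), so its sign depended on that array. The muscle difference rested on single arrays too, at -0.028 when congenic array 2 was left out and 0.0054 when wild type array 1 was.

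Taf7, which binds the large subunit Taf1 and inhibits its acetyltransferase activity, had 12.35, 11.91 and 11.40 in congenic muscle, against 12.03, 12.41 and 12.23 in wild type muscle. In hypothalamus its values were 10.15, 11.59 and 11.09 in congenics, against 7.57, 10.30 and 10.44 in wild type mice. The value of 7.57, on wild type array 1, made most of the difference of 1.51 (95% interval -0.57 to 3.58, limma adjusted p = 0.936), which was 0.57 without that array (-0.49 to 1.64, limma adjusted p = 0.906). In muscle the difference was -0.34 (-0.98 to 0.31, limma adjusted p = 0.849).

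Taf5, a WD-repeat scaffold subunit, had 10.34, 10.27 and 10.03 in congenic muscle, against 9.65, 9.71 and 10.03 in wild type muscle. The groups met at 10.03, and the difference was 0.42 (95% interval -0.36 to 1.20, limma adjusted p = 0.848). In hypothalamus Taf5 had 9.67, 8.74 and 9.99 in congenics, against 12.35, 9.92 and 10.10 in wild type mice. The difference of -1.32 (-3.20 to 0.56, limma adjusted p = 0.936) became -0.54 (-1.72 to 0.63, limma adjusted p = 0.918) without wild type array 1, which carried the value of 12.35.

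**Figure D2:**
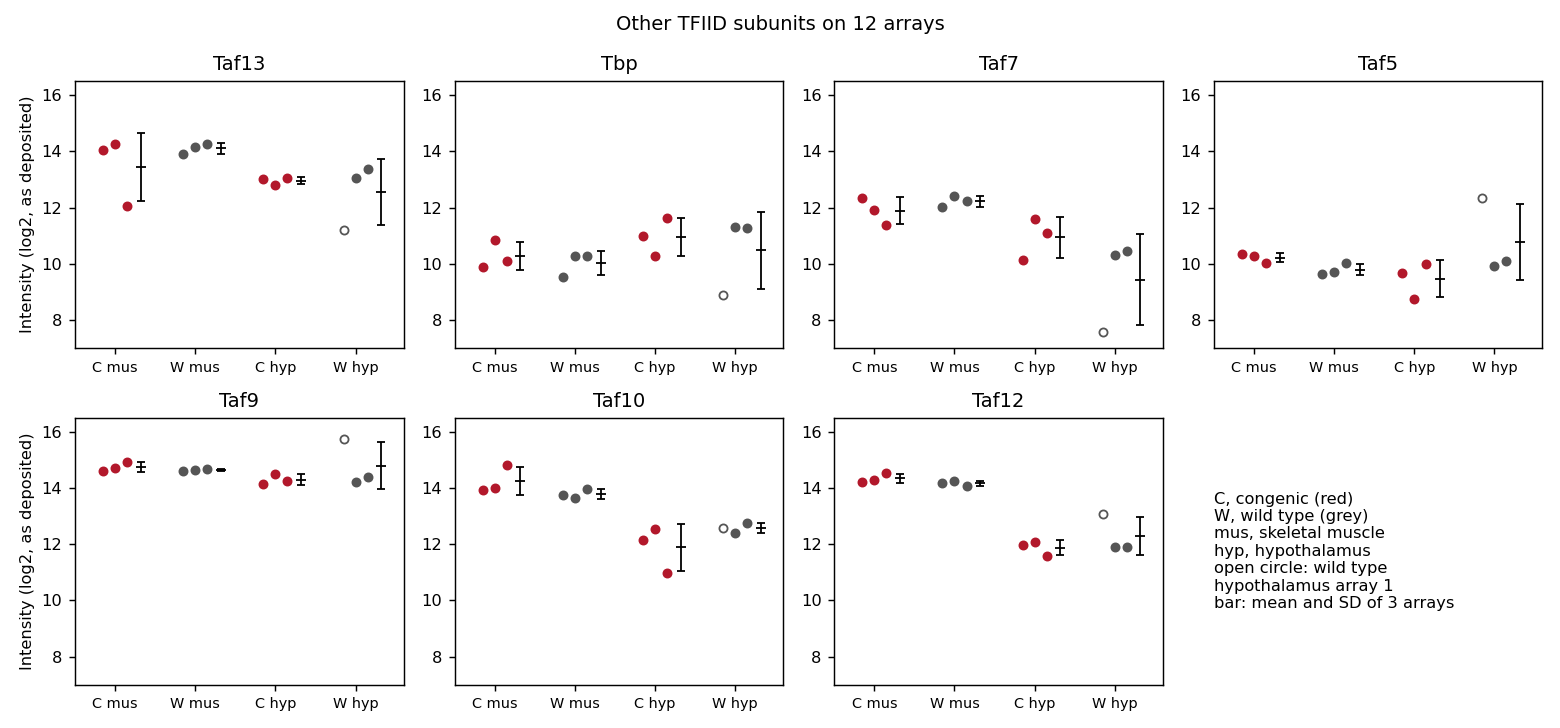
Intensities of the 7 other subunits (log2, as deposited, vertical axis, the same scale in each panel) on the 12 arrays, with congenic (red) left of wild type (grey) in each tissue and the mean and SD of 3 arrays beside the points. The open circle, wild type hypothalamus array 1, lies outside the other 5 hypothalamus arrays for Taf13, Tbp, Taf7, Taf5, Taf9 and Taf12 but not for Taf10.

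Among the subunits that TFIID shares with SAGA, Taf9 had the narrowest range in muscle. Its probe gave 14.59, 14.73 and 14.93 in congenic muscle, against 14.62, 14.64 and 14.66 in wild type muscle. The difference was 0.11 (95% interval -0.26 to 0.48, limma adjusted p = 0.908), so that more than a 1.39-fold change lies outside the interval. In hypothalamus Taf9 had 14.15, 14.51 and 14.24 in congenics, against 15.75, 14.22 and 14.41 in wild type mice. The difference of -0.49 (-1.94 to 0.95, limma adjusted p = 0.936) shrank to -0.02 (-0.66 to 0.63, limma adjusted p = 0.997) without wild type array 1.

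Taf12, the histone-fold partner of Taf4, had 14.23, 14.27 and 14.54 in congenic muscle, against 14.18, 14.24 and 14.08 in wild type muscle. In hypothalamus its values were 11.98, 12.09 and 11.57 in congenics, against 13.07, 11.90 and 11.89 in wild type mice. The differences were 0.18 in muscle (95% interval -0.21 to 0.57, limma adjusted p = 0.859) and -0.41 in hypothalamus (-1.85 to 1.04, limma adjusted p = 0.937). Without wild type array 1 the hypothalamus difference was -0.01 (-0.70 to 0.67, limma adjusted p = 0.998).

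Taf10, a further histone-fold subunit, had 13.92, 14.00 and 14.82 in congenic muscle, against 13.73, 13.64 and 13.97 in wild type muscle. Congenic array 3, on which Taf13 was low, was the highest here. In hypothalamus Taf10 had 12.16, 12.53 and 10.96 in congenics, against 12.59, 12.41 and 12.76 in wild type mice. The differences were 0.46 in muscle (95% interval -0.11 to 1.03, limma adjusted p = 0.835) and -0.70 in hypothalamus both with wild type array 1 (-2.19 to 0.79, limma adjusted p = 0.936) and without it (-1.77 to 0.37, limma adjusted p = 0.900). Without congenic muscle array 3 the muscle difference was 0.18, and without congenic hypothalamus array 3 the hypothalamus difference was -0.24.

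**Figure D3:**
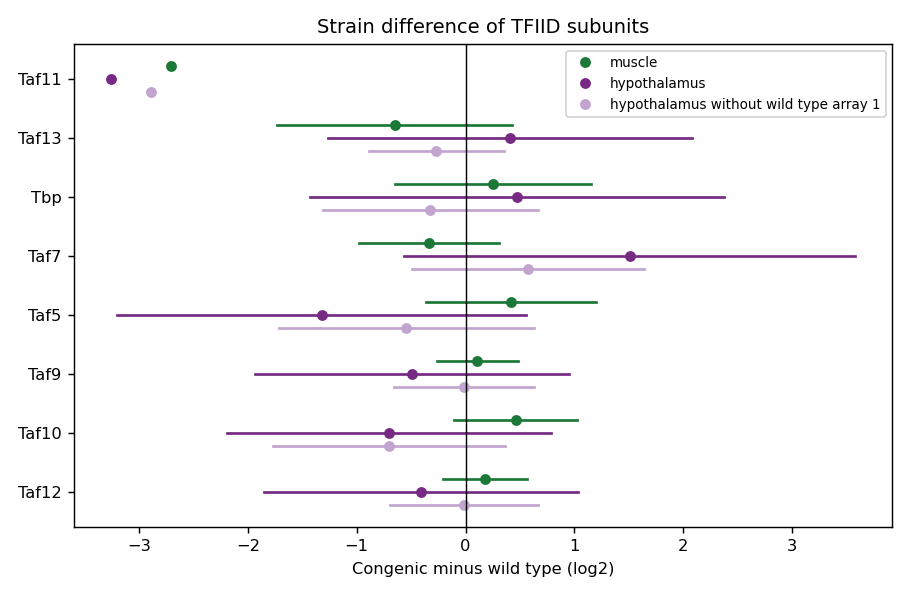
Congenic minus wild type difference (log2, horizontal axis) of each measured subunit in muscle, in hypothalamus and in hypothalamus without wild type array 1, with 95% intervals of the limma fit as lines. Taf11 is drawn without an interval because it was chosen for this difference: its points lie between -3.26 and -2.70, while every interval of the other subunits spans 0.

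Whether the strain effect differed between the tissues was tested as an interaction that takes the 12 arrays as independent, although tissues may share animals. With the replicate number as a block shared by the tissues of a strain, 0 of 7 other subunits passed as well, and the smallest limma adjusted p was 0.908. Over 12 arrays the muscle effect minus the hypothalamus effect of the 7 other subunits lay between -1.84 (Taf7) and 1.74 (Taf5). Of these 0 of 7 passed limma adjusted over all probes (0% of all probes) and 0 of 7 had an unadjusted p under 0.05 (3.63%). Without wild type hypothalamus array 1 the values lay between -0.91 (Taf7) and 1.16 (Taf10), and 0 of 7 passed (0%), with 0 of 7 at an unadjusted p under 0.05 (6.74%). The smallest limma adjusted p of the 7 was 0.913 over 12 arrays and 0.737 without that array.

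Between the tissues, Taf12 and Taf10 had the largest gaps of the other subunits in the congenic strain, as a description across separate normalizations. In congenics Taf12 was 2.47 higher in muscle (14.35) than in hypothalamus (11.88), and Taf10 was 2.36 higher. In wild type mice the gaps were 1.88 for Taf12, or 2.27 without hypothalamus array 1, and 1.20 for Taf10 in both cases. Over all wild type arrays Taf7 had the largest gap, at 2.79, which was 1.85 without hypothalamus array 1. In congenics the Taf7 gap was 0.94. Tbp had the opposite sign, with -0.68 in congenics and -0.46 in wild type mice, or -1.25 without that array. With all arrays normalized together the Taf12 gap was 2.16 in congenics and 1.55 in wild type mice (1.98 without that array). The Tbp gap was then -0.78 in congenics and -0.57 in wild type mice (-1.35 without that array). Taf9 had no stable sign. As deposited its gap was 0.45 in congenics and -0.15 in wild type mice, or 0.33 without that array. On the joint scale it was -0.12 in congenics and -0.74 in wild type mice, or -0.23 without that array.

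Genes next to Taf11 on chromosome 17 were set beside it. In the order of the assembly GRCm38.p6, Tbp was number 45 and Taf11 number 193 of the 656 measured genes of this chromosome. In muscle the 4 measured genes on each side of Taf11 had differences between -0.35 and 0.69. Snrpc, which encodes a U1 snRNP protein and is the measured gene just before Taf11, differed by 0.35, and Anks1, the ankyrin repeat gene just after it, by -0.23 (limma adjusted p = 0.835 and 0.890). Rps10, a ribosomal protein gene, differed by -0.12, Pacsin1, a neuronal gene of endocytosis, by -0.08, Spdef, an ETS factor of epithelia, by -0.16, Tcp11, a testis gene, by -0.35, Zfp523, a zinc finger gene, by 0.69, and Def6, a guanine nucleotide exchange factor of lymphocytes, by -0.18. In 0 of 8 did the strains separate in muscle, where congenic arrays were all higher for 6.65% and all lower for 5.27% of all probes.

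Without wild type array 1, 7 of the same 8 genes had negative differences in hypothalamus, between -1.19 (Def6) and 0.28 (Tcp11). Of all probes 49.3% were positive in that comparison, and the median of the 656 named genes of chromosome 17 was -0.10. The strains separated for Zfp523 (-1.10) and Def6, 2 of 8 genes against 13.3% of all probes with congenic arrays all lower. With wild type array 1 in the fit, 5 of the 8 were negative, the range was -0.68 to 2.25, and the strains separated for 0 of 8 (3.47% of all probes all higher, 5.69% all lower). By limma 0 of 8 passed in muscle (0.0182% of all probes) and 0 of 8 in hypothalamus in both cases (0%). Limma adjusted p-values were at least 0.835 in muscle and 0.900 in hypothalamus without wild type array 1. Around Tbp, all 8 neighbours had positive differences in muscle, between 0.04 and 0.68, where 51% of all probes were positive. The strains separated there for Psmb1, a proteasome subunit gene (0.68, limma adjusted p = 0.835), and Riok2, a kinase gene of ribosome maturation (0.65, limma adjusted p = 0.835). These are 2 of 8 genes, against 6.65% of all probes with congenic arrays all higher. The other neighbours differed in muscle by 0.11 (Phf10), 0.14 (Dll1), 0.04 (Fam120b), 0.29 (Pdcd2), 0.04 (Rgmb) and 0.34 (Has1). In hypothalamus without wild type array 1, 5 of the 8 were negative, with a range of -0.73 to 0.87, and the congenic arrays were all lower for 3 (Phf10, Dll1 and Rgmb), against 13.3% of all probes. With that array 3 were negative, the range was -0.85 to 2.59, and only Dll1 of the 8 was lower on all congenic arrays (5.69% of all probes).

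**Figure D4:**
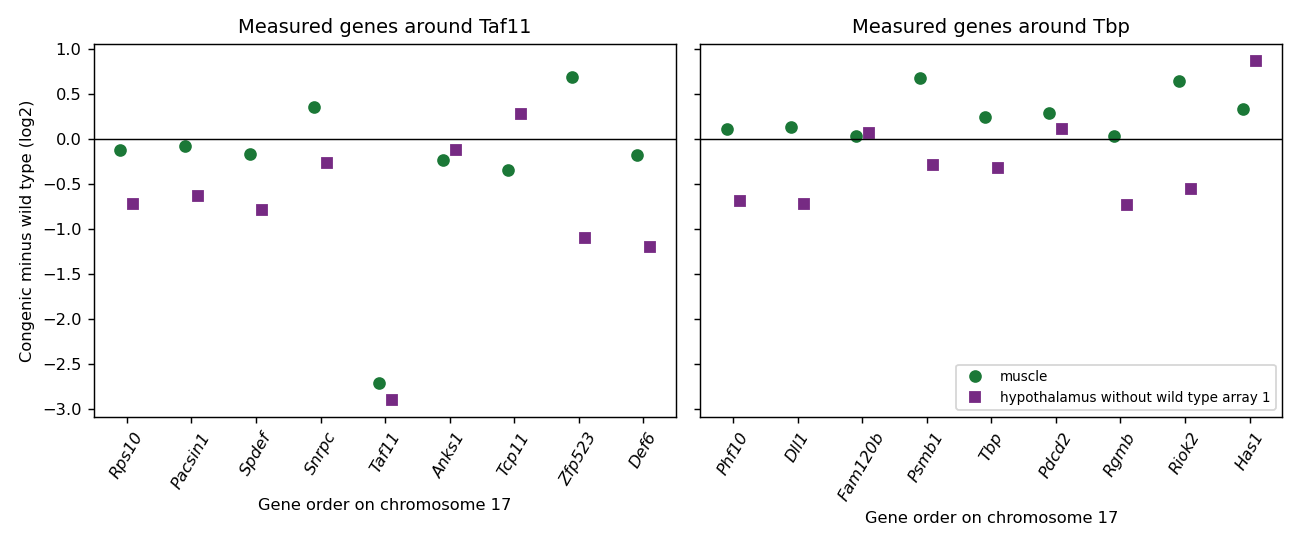
Congenic minus wild type difference (log2, vertical axis) of the measured genes around Taf11 (left) and Tbp (right) in chromosome order, in muscle (circles) and in hypothalamus without wild type array 1 (squares). Taf11 lies at -2.70 and -2.90, and its 8 neighbours lie between -1.19 and 0.69.

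The genes most like Taf11 across arrays were found by Pearson's r of values centred in each tissue, over 11 arrays without wild type hypothalamus array 1 and 13839 genes. They were Pla2g7, a lipoprotein-associated phospholipase gene (0.96), Enpp5, of the ectonucleotide pyrophosphatase family (0.92), Cdh5, vascular endothelial cadherin (0.89), Spg7, a mitochondrial protease subunit gene (0.89), and Antkmt, a lysine methyltransferase gene (0.88). Of these 5 genes 3 (Pla2g7, Enpp5 and Antkmt) lie on chromosome 17, against 656 of all 13840 named genes, Taf11 included. The arrays share the split by strain, so genes that differ between the strains lead such a list. With all 12 arrays the values were 0.03 for Pla2g7, 0.51 for Enpp5, 0.72 for Cdh5, -0.35 for Spg7 and -0.30 for Antkmt, and 0 of the 5 stayed among the first 5. For the other TFIID subunits r lay between -0.27 (Taf12) and 0.27 (Taf13) over the 11 arrays, and between -0.47 (Taf7) and 0.44 (Taf9) over all 12.

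The rest of the promoter machinery was read from 7 lists of 66 genes, of which 48 were measured. In muscle 26 had positive and 22 negative differences, with a median of 0.04. By limma adjusted over all probes 0 of 48 passed, against 0.0182% of all probes. At an unadjusted p under 0.05 there was 1 of 48, against 5.01% of all probes. In hypothalamus 0 of 48 passed over all 6 arrays (0% of all probes), with 1 at an unadjusted p under 0.05 (1.99%). Without wild type array 1 again 0 of 48 passed (0% of all probes), with 24 positive and 24 negative differences. Of the 48 genes 7 then had an unadjusted p under 0.05 (5.33% of all probes). The congenic arrays were then all higher for 6 of 48 (9.32% of all probes) and all lower for 9 of 48 (13.3%).

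Of the other TFIID subunits and paralogs 3 of 8 were measured. Taf9b, the paralog of Taf9, had 9.83, 10.75 and 11.65 in congenic hypothalamus, against 9.07, 9.50 and 9.10 in wild type hypothalamus. The strains did not overlap, with a difference of 1.52 (limma adjusted p = 0.936), or 1.45 without wild type array 1 (limma adjusted p = 0.900). Congenic arrays were all higher in hypothalamus for 3.47% of all probes, or 9.32% without that array. In muscle Taf9b differed by 0.25 (limma adjusted p = 0.885), and its strains overlapped. Taf15, an RNA-binding protein gene, differed by 0.70 in muscle and by -0.06 in hypothalamus, or -0.01 without wild type array 1. Taf7l, the germ cell paralog of Taf7, differed by 0.61 in muscle and by -1.37 in hypothalamus, or -0.16 without that array. In muscle its congenic arrays were all higher, as for 6.65% of all probes.

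The 7 measured genes of TFIIA, TFIIB, TFIIE and TFIIF, which join TFIID at the promoter, had muscle differences between -0.21 and 0.42 with a median of -0.04. Those of the 9 measured TFIIH genes, which open DNA and phosphorylate the polymerase, lay between -0.73 (Gtf2h5) and 0.24. RNA polymerase II itself had 6 positive and 1 negative difference of 7 in muscle, between -0.62 (Polr2k) and 0.31 (Polr2f). Muscle medians were -0.22 for 4 TBP-related factors and TBP regulators, -0.08 for TFIIH, 0.13 for the polymerase, 0.25 for 12 SAGA genes and -0.01 for 6 genes of the TBP complexes of RNA polymerases I and III.

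In hypothalamus the list medians turned on wild type array 1. They were 0.66 for TFIIA, TFIIB, TFIIE and TFIIF, 0.64 for TFIIH and 1.14 for the polymerase over all 6 arrays, and -0.12, 0.05 and -0.02 without it. Polr2g, a polymerase subunit gene, had 14.82, 14.67 and 13.37 in congenics, against 8.33, 13.98 and 14.46 in wild type mice, and the lowest of these is array 1. In SAGA, Taf6l, a paralog of Taf6, differed by -2.06 and Sgf29, a reader of histone methylation, by -1.30 without wild type array 1 (limma adjusted p = 0.900 for both), and by -1.16 and -0.25 with it.

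Besides Taf11 and Tbp, 6 of the measured listed genes lie on chromosome 17: Gtf2a1l, Gtf2f1, Gtf2h4, Gtf2h5, Supt3 and Kat2b. Listed genes without a measured probe were not counted here. In muscle 3 were positive and 3 negative, with a median of 0.01, and by limma 0 of 6 passed (0.0182% of all probes). Gtf2h5, a small subunit of TFIIH, had 13.28, 13.27 and 11.60 in congenic muscle, against 13.39, 13.40 and 13.55 in wild type muscle. Its strains did not overlap (5.27% of all probes all lower), the only such case of the 6 in muscle. Congenic array 3 was the low one, as for Taf13. Its difference was -0.73 (limma adjusted p = 0.835) in muscle and 0.66 in hypothalamus without wild type array 1 (limma adjusted p = 0.900). Over all 6 hypothalamus arrays it was -0.12 (limma adjusted p = 0.979), so a sign opposite to that in muscle was seen only without that array. Without wild type array 1 the hypothalamus arrays separated for 2 of 6, Gtf2h5 (higher, 9.32% of all probes) and Supt3 (lower, 13.3%). Supt3 differed there by -0.81 (limma adjusted p = 0.900), but by 0.84 over all 6 hypothalamus arrays and 0.59 in muscle.

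**Figure D5:**
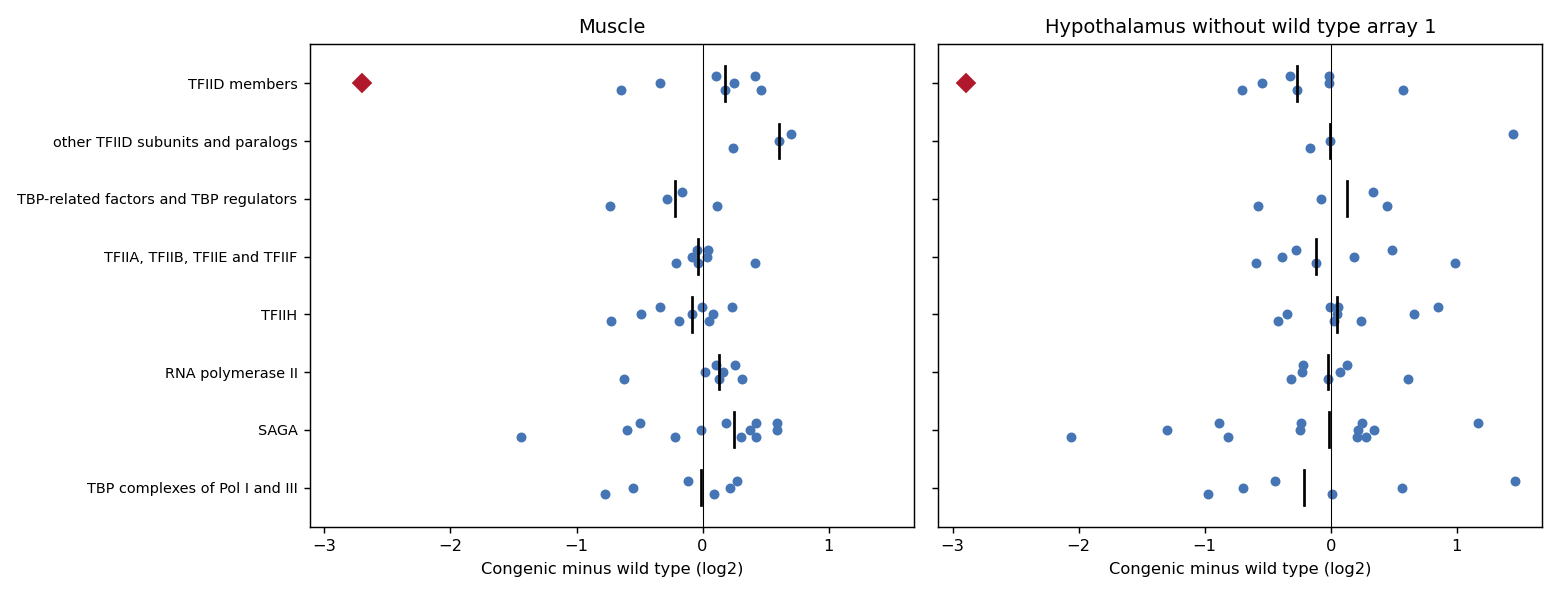
Congenic minus wild type difference (log2, horizontal axis) of each measured gene of 8 lists of promoter machinery in muscle (left) and in hypothalamus without wild type array 1 (right). Black bars are list medians, with Taf11 (red diamond, at -2.70 and -2.90) left out of that of the TFIID members, and no other listed gene lies below -2.06.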

How the data were processed

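Labelled cRNA of 12 samples was read on 1-colour chemiluminescent arrays, per the labels' protocols. The deposited values were read as log2 intensities, with base 2 inferred from their range. Within a tissue the 6 arrays had 1 common distribution, which quantile normalization leaves. No source used here names the software or a background correction, and the number of arrays limits the precision. Of 33012 probes 14411 carried 1 gene symbol, 247 several and 18354 none, and current names came through gene IDs of GRCm38.p6. Groups were taken from the titles.

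Strain differences, congenic minus wild type, and their difference between tissues were fitted over all probes with limma 3.58.1 in R 4.3.3 (eBayes with a trend, Benjamini-Hochberg adjustment, threshold 0.05) and tested on simulated data. With 3 arrays per group each p measures the spread between these arrays. The probe with the highest mean stood for a gene. Members, lists and wild type hypothalamus array 1 were chosen with earlier results of these data known. Named were all members, listed genes that passed or had among the 3 largest differences of their list, 4 neighbours on each side and the 5 genes most like Taf11.

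Alternatives were each array left out, the replicate block, other eBayes settings, a floor, a filter, array weights and joint fits. Equal replicate numbers of the strains did not deviate together, with correlations of 0.01 to 0.07 in muscle and -0.13 to 0.14 in hypothalamus, so they were not taken as pairs. Equal numbers of the tissues of a strain correlated at 0.02 to 0.08, and a block shared by the tissues was added after seeing the data.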

Additional observations from a re-analysis of the deposited data

How the results depend on the processing

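Taf11 kept its sign under each alternative in each tissue. Most of them say nothing about its stability. The replicate block over all arrays of a tissue, the eBayes settings, the filter and the 12-array fit cannot move its estimate. The floor did not reach its values either, so these all gave -2.70 in muscle and -3.26 in hypothalamus. Array weights gave -2.84 and -3.07. With single arrays left out Taf11 ranged from -2.98 to -2.43 in muscle and from -3.47 to -2.90 in hypothalamus. Without array 1 of both strains it was -2.68 in hypothalamus, with the replicate block too, and the muscle minus hypothalamus value was -0.026. None of the 7 other subunits passed limma in either tissue or in the interaction under any alternative run, with adjusted p-values of at least 0.602. The number of probes called in muscle was 6, and 2 to 8 with single arrays left out (3 without congenic array 2 or wild type array 3, 2 without wild type array 2). It was 2 without a trend in eBayes, 2 with the floor at the 20th percentile, 1 in the fit of all 12 arrays and 9 with array weights. With the replicate block it was 6 in muscle and 0 in hypothalamus, and 19 in hypothalamus without array 1 of both strains, where the cause was not tested. With a replicate block shared by the tissues, chosen after seeing the data, 0 probes passed the interaction, also without wild type hypothalamus array 1. Joint normalization moved Taf11 in wild type muscle to 14.71. The genes most like Taf11 shared 0 of 5 with those over all 12 arrays. Each member had 1 probe, so averaging probes gave no other value. Low values cannot be told from background, as no detection calls were available.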

Other observations

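Atxn7, a SAGA subunit gene on chromosome 14, was the listed gene with the largest muscle difference after Taf11 and lay on opposite sides in the tissues. It had 10.64, 9.04 and 9.07 in congenic muscle, against 10.87, 11.00 and 11.22 in wild type muscle. In hypothalamus it had 9.99, 10.33 and 10.06 in congenics, against 7.61, 8.57 and 9.35 in wild type mice, and array 1 was the lowest of these. The differences were -1.44 in muscle (limma adjusted p = 0.835) and 1.62 in hypothalamus (limma adjusted p = 0.936), or 1.17 without wild type array 1 (limma adjusted p = 0.900). The interaction was -3.06 (SE 0.80, limma adjusted p = 0.913) and without that array -2.61 (SE 0.67, limma adjusted p = 0.545), so it did not pass. Arrays separated in opposite directions for 1 of 55 listed genes in muscle and hypothalamus, against 0.739% of all probes. Without wild type array 1 this held for 3 of 55 (Atxn7, Gtf2h5 and Tbpl1), against 1.65% of all probes.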
